A study of Mus musculus with 2 samples.

Results

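Mast cells of the embryonic limb were examined on embryonic day E15.5 in single-cell RNA profiles of mouse limb muscle. A cell barcode, the tag that marks the transcripts of 1 droplet, was selected on 3 genes: at least 2 of Cma1, Cpa3 and Tpsb2 had to be seen with 1 or more unique molecular identifiers (UMIs, counted RNA molecules), and the 3 together had to reach 3 UMIs. A barcode was kept where it showed 500 or more genes and less than 10% of its UMIs came from mitochondrial genes. The rule found 74 members among 4106 kept E15.5 barcodes, a share of 1.80% (exact 95% interval 1.42 to 2.26, counting error only). Across both libraries of the study 16377 barcodes were kept. Because these 3 genes chose the members, their levels in them are a description and no finding.

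The study profiled limb skeletal muscle of wild-type C57Bl/6 embryos, forelimbs and hindlimbs together, at E12.5 and E15.5. Cells were freed mechanically and with trypsin, and 1 library per age was made with the 10x Genomics Chromium 3′ v3.1 kit from 20000 input cells. Both ages share strain and genotype, and no treatment is given in the labels. The number of embryos behind each library is not given in the sources used here. With 1 library per age there is no replicate, so no test between ages or cell types was possible, and every interval below covers counting error only. The E15.5 library held 5780 barcodes and 46966083 UMIs, and the E12.5 library 12941 barcodes and 34907675 UMIs. The libraries shared 17 barcode sequences, none of them a member.

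Mast cells are tissue-resident blood cells of the myeloid lineage that depend on the receptor tyrosine kinase Kit and its ligand, stem cell factor. They pack secretory granules with proteases, histamine and other amines, held by the proteoglycan serglycin and its sulphated heparin chains. Cross-linking of immunoglobulin E (IgE) on their high-affinity receptor releases the granules. Cma1 encodes a chymase, Tpsb2 a tryptase and Cpa3 the mast cell carboxypeptidase, the main protease classes of connective tissue mast cells. In the embryo mast cells enter the skin and other connective tissues before birth, in waves that arise from the yolk sac and later blood-forming sites.

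The bases before the start of leading member genes are shown for 2 of the rule's genes and for 4 other genes that the results below turn on, chosen with the windows known. GATA2, a transcription factor of mast cells, binds GATA words. The windows are the 250 bases before the RefSeq gene start in build GRCm38.p6, read 5′ to 3′ on the gene's strand, at chr14:55944676-55944925 (minus strand) for Cma1, chr3:20242182-20242431 (minus) for Cpa3, chr2:126618679-126618928 (minus) for Hdc, and on the plus strand chr6:88193641-88193890, chr5:75574737-75574986 and chr1:40429320-40429569 for the first of 2 starts each of Gata2, Kit and Il1rl1. Capitals mark 4 words or their reverse complements: the word AGATAA, the word AGATAG, the word TGATAA and the word TGATAG.
Cma1: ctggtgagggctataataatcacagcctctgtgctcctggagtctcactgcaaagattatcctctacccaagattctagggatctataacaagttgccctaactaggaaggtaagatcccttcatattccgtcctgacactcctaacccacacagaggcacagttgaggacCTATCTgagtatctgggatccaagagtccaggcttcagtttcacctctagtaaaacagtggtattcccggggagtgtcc
Cpa3: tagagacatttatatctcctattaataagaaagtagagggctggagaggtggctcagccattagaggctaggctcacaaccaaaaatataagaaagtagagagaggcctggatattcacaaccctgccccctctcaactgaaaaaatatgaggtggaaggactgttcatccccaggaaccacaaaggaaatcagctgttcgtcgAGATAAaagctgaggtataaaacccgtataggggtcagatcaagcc
Hdc: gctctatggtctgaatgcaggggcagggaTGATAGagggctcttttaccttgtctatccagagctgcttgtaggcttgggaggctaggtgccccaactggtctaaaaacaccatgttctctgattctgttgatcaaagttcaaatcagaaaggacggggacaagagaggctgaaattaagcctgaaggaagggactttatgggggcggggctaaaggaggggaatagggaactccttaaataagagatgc
Gata2: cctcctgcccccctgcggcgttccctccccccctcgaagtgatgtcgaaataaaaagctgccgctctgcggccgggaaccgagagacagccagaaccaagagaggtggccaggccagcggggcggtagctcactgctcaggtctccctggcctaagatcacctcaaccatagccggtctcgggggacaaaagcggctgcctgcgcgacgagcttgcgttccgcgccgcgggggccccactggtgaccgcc
Kit: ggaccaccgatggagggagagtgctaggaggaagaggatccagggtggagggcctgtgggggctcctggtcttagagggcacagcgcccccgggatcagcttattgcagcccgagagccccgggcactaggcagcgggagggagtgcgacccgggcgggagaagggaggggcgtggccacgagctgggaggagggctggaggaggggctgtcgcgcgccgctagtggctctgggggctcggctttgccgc
Il1rl1: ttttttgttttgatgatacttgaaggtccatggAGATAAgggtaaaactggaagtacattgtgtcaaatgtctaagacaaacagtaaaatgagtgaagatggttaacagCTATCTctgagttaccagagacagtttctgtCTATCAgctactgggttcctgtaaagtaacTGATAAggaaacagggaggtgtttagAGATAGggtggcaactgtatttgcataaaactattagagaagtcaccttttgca
The Cma1 window held 1 such word, which began 79 bases before the start, and the Cpa3 window 1, which began 46 bases before it. In the Hdc window the 1 word began 221 bases before the start, and the Il1rl1 window held 5. Neither window of Gata2 nor of Kit held one. Of the 28 genes made up of the 3 markers and the 25 genes with the highest ratio in mast cells, 18 had an entry, with 26 windows, of which 13 (50%) held a GATA word. Among all 32851 windows of the same length the share was 26.5%. Windows of 1 gene can overlap, and a match of letters is a description, not a site. The words CACATG and CACGTG on either strand, the kind bound by MITF, stood in 4 of the 26 windows, and in 17.6% of all windows.

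The members fell into a large block and a few barcodes near the rule's edge. Of the 74, 70 held between 150 and 1270 marker UMIs (median 479.5), and the other 4 held 3, 3, 8 and 37. The 2 members just inside the rule, with 3 marker UMIs each, had no UMI of Hdc, Kit or Srgn. One of them, at 44910 UMIs, held 319 of the 325 Ttn UMIs of all members, Ttn being the giant sarcomere protein titin, and the 4 together held 65.0% of the members' Col1a1 UMIs. The 2 with 8 and 37 marker UMIs were shallow, at 1253 and 1233 UMIs, and carried 4 and 7 UMIs of Hdc. Just outside the rule, 3 kept barcodes had 8 or more UMIs of Cpa3 alone, 15 had 2 marker UMIs and 276 had 1. A further 4 barcodes met the marker rule but not the filter, 3 of them for too few genes and 1, with 112 marker UMIs, for 12.4% mitochondrial UMIs.

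**Figure D1:**
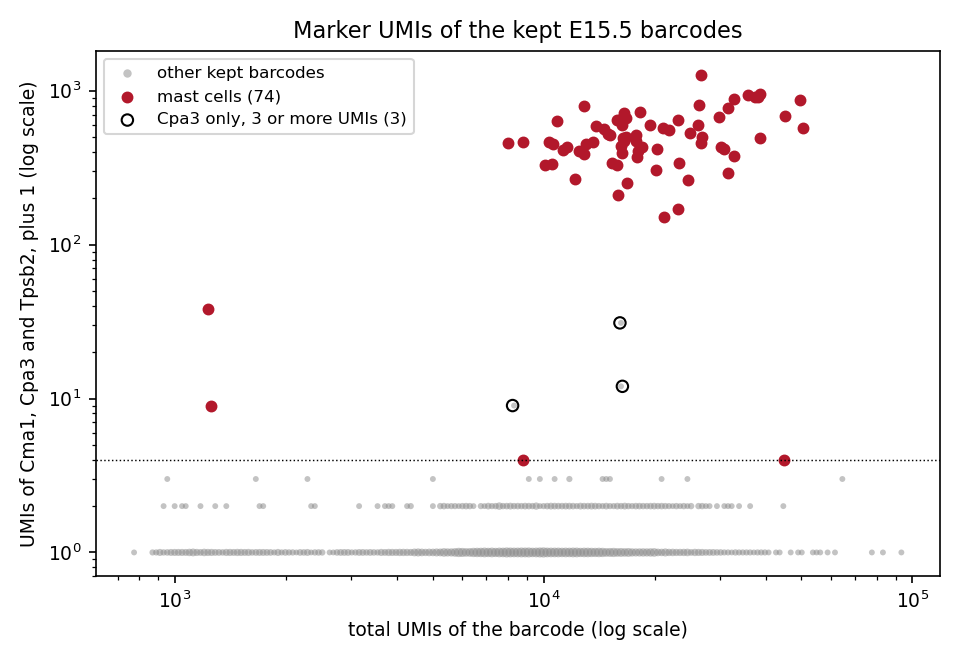
Kept E15.5 barcodes, with total UMIs on the x axis and UMIs of Cma1, Cpa3 and Tpsb2 plus 1 on the y axis, both on log scales. The dotted line is the rule's minimum of 3 UMIs; 70 of the 74 mast cells (red) hold at least 150 marker UMIs, above all other kept barcodes (grey, pooled in narrow bins of total UMIs with points that grow with the number of barcodes), and open circles mark 3 barcodes with Cpa3 alone.

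The members were deep barcodes. They held 1549778 UMIs in all, with a median of 17801 UMIs and 3868 genes, against 9442.5 UMIs and 3063.5 genes in the 4032 other kept barcodes. The 3 markers made up 2.38% of the members' UMIs. Levels are given as CPM, the UMIs of a gene per 1000000 UMIs, summed over the barcodes of a group, with exact 95% Poisson intervals. Cma1 stood at 12102 (11929 to 12276) CPM in mast cells and 4.12 (3.53 to 4.78) in the others, Cpa3 at 9021 (8872 to 9171) and 3.27 (2.75 to 3.86), and Tpsb2 at 2677 (2596 to 2759.9) and 0.965 (0.693 to 1.31). In single members with at least 100 marker UMIs, the lowest, median and highest Cma1 levels were 612, 14577 and 30606 CPM, those of Cpa3 3269, 9407 and 21861, and those of Tpsb2 0, 2827 and 14004. Cpa3 had the narrowest range of the 3 as a ratio of highest to lowest, and Tpsb2 was at 0 in 3 of the 70. A Cma1 UMI was also seen in 4.24% of the other barcodes, at 1 or 2 marker UMIs in all of them, and after thinning each barcode to 2000 UMIs in 0.691% of them and in 0% of 55 macrophages.

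The label was set beside genes the rule did not use, in lists chosen with earlier results of these data known. The threshold was 4-fold higher in mast cells than in the other barcodes, with 10 CPM added to both levels. Of the 11 mast cell markers outside the rule, 8 passed it, beside 2.65% of all genes with at least 10 CPM in either group. Fcer1a, Mrgprb1 and Mrgprb2 did not. Genes of other lineages were low. Of 8 neutrophil markers 7 were at 0 UMIs in all 74 members, S100a8, S100a9, Mpo and Elane among them. All 5 Schwann cell markers were at 0, and so were the endothelial Cdh5, Tie1, Esam and Cldn5. Of the 8 erythroid markers 3 were at 0, Slc4a1 and Hemgn among them. The other genes of these last 2 lists were seen. The 8 endothelial markers summed to 77 UMIs, or 49.7 CPM against 323 in the other barcodes, and 32 members had none. The 8 erythroid markers summed to 167 UMIs, or 107.8 CPM against 2414, and 14 members had none. A count of 0 over the members allows up to 1.94 CPM. The 10 macrophage markers summed to 326 UMIs, or 210.4 CPM against 12916 in macrophages, of which 265 lay in 1 member that also met the macrophage rule given below, and 62 members had none. That member, the deepest at 50538 UMIs, held all 39 C1qa UMIs of the members. The 8 connective tissue markers summed to 563 CPM in the members, to 176 without the 4 members under 100 marker UMIs, and to 9797 in the others. The 8 muscle lineage markers summed to 441 CPM in the members, to 775 in the others, and to 64.9 in the members without those 4. All 4 basophil markers passed upward, beside 2.65% of all genes, at a summed 831 CPM against 11.4. Of their 1288 UMIs in the members, 426 were Mcpt8 UMIs of 1 member. Il6, 1 of the 4, missed the threshold without the member richest in it. In the other barcodes 205 of 213 Mcpt8 UMIs lay in 3 barcodes described below. Of 8 lymphoid markers 1 passed upward, Nkg7, a granule gene of killer cells, at 43.9 CPM in 26 members. The eosinophil list had 16 UMIs, all of Prg3, the melanocyte list 1, the mural list 9 and the epithelial list 3. What part RNA of other cells had in these values was not tested.

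Over all genes, 254 of 9599 genes with at least 10 CPM in either group passed the 4-fold threshold in the upward direction (2.65%), and 523 in the downward direction (5.45%). These counts depend on the CPM added: with 1 CPM they were 559 and 1572, and with 50 CPM 73 and 96. Ranked by the ratio with 10 CPM added, which holds back genes that are near 0 in the others, the first gene outside the rule was Hdc, histidine decarboxylase, the enzyme that makes histamine, at 3077 (2990.5 to 3166) CPM against 3.95 (3.38 to 4.60), or 778-fold (667 to 913) higher with nothing added, as are all folds printed here. Srgn, the core protein of serglycin, was next in that ranking, at 3187 (3099 to 3277) CPM, 196-fold (181 to 212) higher. Gpr65, a proton-sensing receptor, stood at 1326 CPM, Serpinb1a, an inhibitor of serine proteases, at 1143, and Samsn1, an adaptor of blood cells, at 857, against 9.51, 12.2 and 9.42 CPM in the others. Cyp11a1, which carries out the first step of steroid synthesis, was at 628 (589 to 669) CPM, 387-fold (303 to 501) higher than in the others, and was found in 68 of the 74 members. Fdx1, the ferredoxin that passes electrons to this enzyme, was at 499 CPM against 56.2, 8.89-fold (8.19 to 9.65) higher. Genes known from other leukocytes also ranked among the 25 highest. Cd69, an early activation antigen, was at 508 CPM against 4.61 and the GTPase Rac2 at 605 against 10.9. The G protein regulator Rgs18 was at 249.7 against 0.918 and Ptprcap, a partner of CD45, at 217 against 1.20. Against the macrophages described below, Rgs18 and Ptprcap also passed the threshold, at log2 ratios of 2.88 and 4.19. Cd69 and Rac2 did not, at 1.96 and 0.85.

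**Figure D2:**
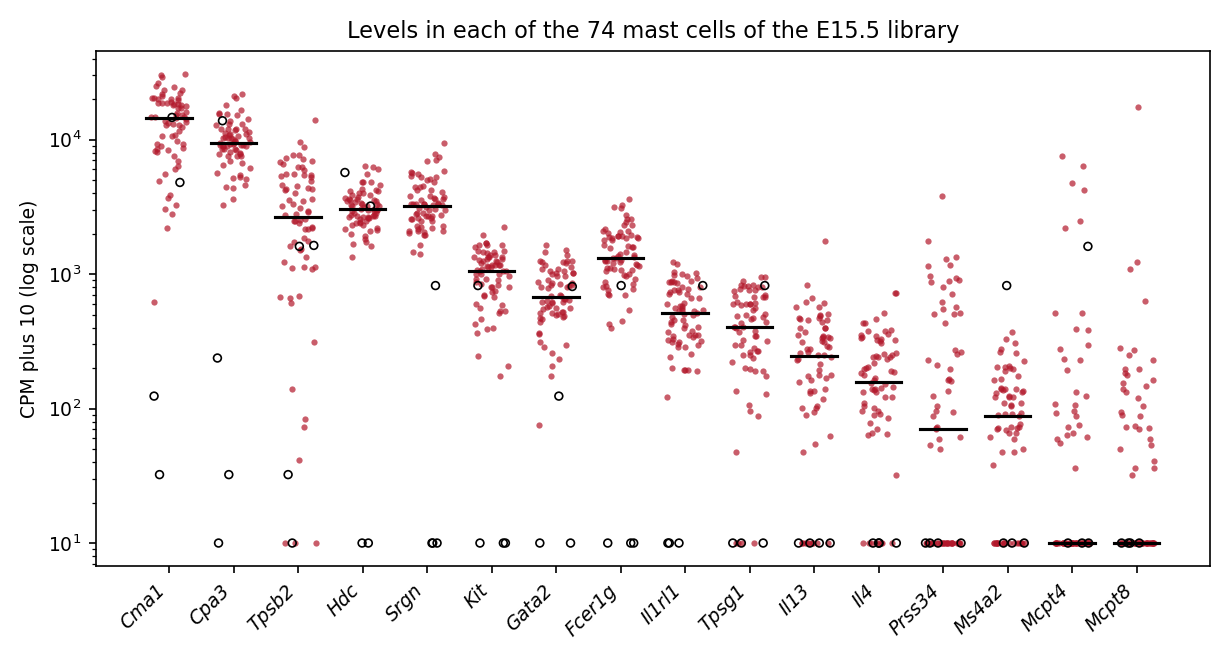
Level of 16 genes in each of the 74 mast cells, as CPM plus 10 on a log scale. Red points are the 70 members with at least 100 marker UMIs, open circles the 4 with fewer, and black bars the median of all 74. Hdc, Srgn and Kit were seen in all 70 red members, while Mcpt4 and Mcpt8 have a median of 0 and a few very high members.

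The granule protease list holds 16 genes, the 3 that chose the members among them. In all 13 reached 10 CPM in either group and 11 passed the 4-fold threshold upward, beside 2.65% of all genes, with none downward. The 3 rule genes are in both counts and supply 36884 of the list's 39764 UMIs. The median log2 ratio of the list, with those 3 genes, was 4.01, beside -0.19 over all genes with at least 10 CPM. In the mm10 annotation (GENCODE vM21) the chymase locus lies on chromosome 14, with Cma1 at chr14:55941451-55944675, Mcpt2 at chr14:56042041-56044642, Mcpt4 at chr14:56059629-56062313 and Mcpt8 at chr14:56082166-56085273, and further along Gzmb at chr14:56258838-56262260. The tryptase locus lies on chromosome 17, with Prss34 at chr17:25298394-25300165, Tpsab1 at chr17:25343245-25345562, Tpsb2 at chr17:25366305-25369098 and Tpsg1 at chr17:25369273-25374442. Cpa3 stands alone at chr3:20215620-20242181 on chromosome 3. Counts of the near-identical pair Tpsb2 and Tpsab1 and of the Mcpt genes are uncertain, since reads can match more than 1 copy.

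The tryptase genes named here were each seen in 42 or more of the 74 members. Tpsg1, a membrane-anchored tryptase, was at 450.4 (418 to 485) CPM in 67 of 74 members and at 0.188 CPM in the others. Tpsab1, the second soluble tryptase, was at 122 (105 to 141) CPM in 42 members and had no UMI in the other barcodes, so that it was at least 1727-fold higher against 3 counts over that group. Prss34, a tryptase-like protease known from basophils and mast cells, was at 297 (270.3 to 325) CPM in 42 members, and 50% of its UMIs lay in 8 of them. Tpsab1 likewise had 50% of its UMIs in 8 members.

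The UMIs of Mcpt4, Mcpt2 and Mcpt8 were concentrated in few members, while Cma2 had 73 UMIs in 43 members at no more than 5 each. Mcpt4, the chymase of connective tissue mast cells, summed to 297 (270.3 to 325) CPM, but 6 members held 393 of its 460 UMIs, at 138, 83, 61, 52, 36 and 23 UMIs, and 43 members had none. Mcpt2, typical of mucosal mast cells, had 288 UMIs in 45 members, 99 of them in 1 member. Mcpt8, a basophil protease, had 426 of its 553 UMIs in 1 member. Without that member it stood at 83.3 CPM (69.4 to 99.1) in place of 357. Gzmb, granzyme B, was seen in 20 members at up to 18 UMIs, while Gzma had no UMI and Mcpt1 and Ctsg, cathepsin G, missed the threshold at 12.9 and 19.4 CPM. For Hdc, by contrast, the highest single member held 4.11% of the UMIs.

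**Figure D3:**
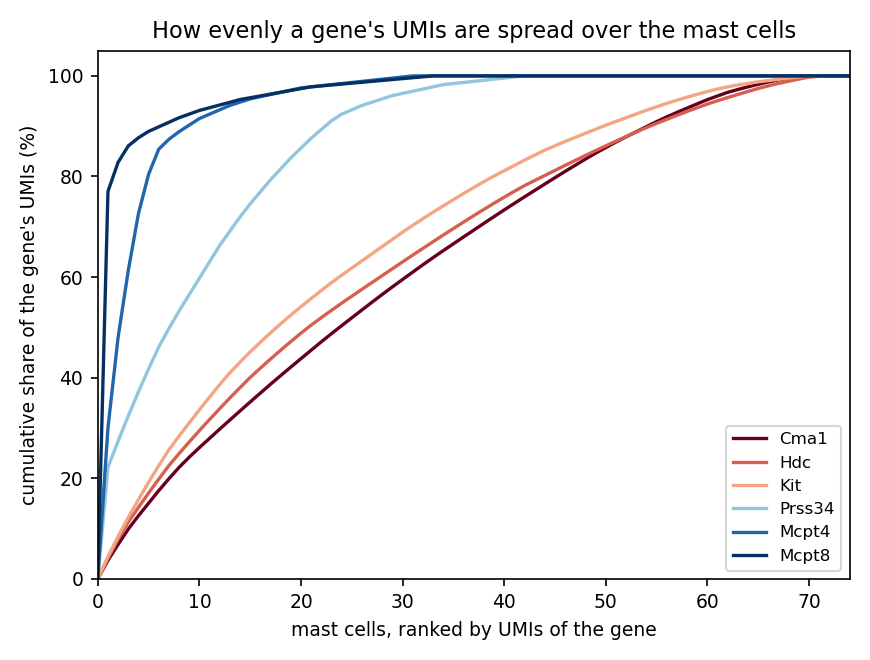
Cumulative share of a gene's UMIs (y axis, percent) over the 74 mast cells ranked by their UMIs of that gene (x axis). Cma1, Hdc and Kit need 18 to 24 members to reach 50% of their UMIs, whereas 1 member reaches it for Mcpt8 and 3 members for Mcpt4.

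Among genes for serglycin and heparin, 3 of 16 passed the threshold upward, beside 2.65% of all genes: Srgn, Ndst2 and Hs3st1. None passed downward, beside 5.45% of all genes. Ndst2, the sulphotransferase needed for heparin in mast cell granules, was at 141 (123 to 161) CPM against 7.18, 19.6-fold (16.4 to 23.4) higher. Its paralogue Ndst1, used by many tissues, was at 28.4 CPM against 41.4. Hs3st1, a heparan sulphate 3-O-sulphotransferase, was 34.9-fold (30.1 to 40.6) higher. The enzymes of the linker and chain, among them Ext1, Ext2, B3gat3 and Hs2st1, stayed within the threshold, with Ext1 at 69.0 CPM against 47.6 and Ext2 at 34.2 against 62.0.

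Of 8 amine genes, 7 reached 10 CPM in either group. Of these, 6 passed the threshold upward, beside 2.65% of all genes, and none downward. Tph1, the first enzyme of serotonin synthesis, was at 180.0 (159.5 to 202) CPM in 52 members, against 0.118 CPM in the others. Ddc, which completes serotonin synthesis, was at 65.2 CPM against 6.87, Slc18a2, the transporter that loads amines into granules, at 149 against 4.05, and Slc6a4, the serotonin transporter of the plasma membrane, at 144 against 0.188. Of the breakdown enzymes, Maob, an amine oxidase, was at 511 (476 to 548) CPM in 70 of 74 members, 226-fold (183 to 283) higher than in the others. Its paralogue Maoa was at 12.3 CPM against 22.9, and Hnmt, which methylates histamine, had no UMI in any member.

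The IgE receptor was represented unevenly. Its beta chain Ms4a2 was at 88.4 (74.2 to 105) CPM in 53 members, 626-fold (280.3 to 1735) higher than in the others, and its gamma chain Fcer1g, which serves several Fc receptors, at 1278 (1222 to 1335) CPM. Fcer1a, the alpha chain that binds IgE, had 13 UMIs in all, 8 of them in 1 of 5 members, and 8.39 CPM missed the 10 CPM minimum. Of 15 genes of the receptor and its signalling, 13 reached 10 CPM in either group. Of these, 7 passed the threshold upward, beside 2.65% of all genes, and none downward. Beside both chains these were the kinase Btk, the adaptors Lat, Lat2 and Lcp2 and the phosphatase Inpp5d, of which Lat2 was highest at 206 (184 to 230.4) CPM against 1.69. The kinase Lyn was at 127 CPM against 24.9 and Syk at 18.1 against 3.91, and neither passed. Lyn missed narrowly, at a log2 ratio of 1.98 with 10 CPM added. It was at 2.03 without the members under 100 marker UMIs and at 1.95 without the member with the most UMIs. Against the macrophages described below, 14 genes of this list reached 10 CPM in either group. Of these, 2 passed upward, beside 2.22% of all genes, and none downward, at a median log2 ratio of 0.10. The list summed to 2289 CPM in mast cells and to 3200 CPM in macrophages.

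Of 29 other receptors, 13 reached 10 CPM in either group and 8 passed the threshold upward, beside 2.65% of all genes. Kit was at 1041 (991 to 1093) CPM, 99.8-fold (89.8 to 111) higher than in the other barcodes, and the lowest, median and highest members with at least 100 marker UMIs held 165, 1054 and 2246 CPM, so that every one of those 70 had Kit UMIs. Il1rl1, the receptor of the alarm cytokine IL-33, was at 557 (521 to 596) CPM, 464-fold (350.0 to 629) higher, at 113, 514 and 1226 CPM in the same ranking. Csf2rb, the shared beta chain of the IL-3, IL-5 and GM-CSF receptors, was at 300.0 CPM against 3.91, Adora3, an adenosine receptor, at 156 against 0.282, and Cd200r3, an activating receptor of basophils and mast cells, at 126 against 0.683. Lilrb4a, an inhibitory receptor, Cd200r1 and Csf2rb2 also passed, the last 2 at 34.8 and 34.2 CPM, and these 2 no longer passed without the single member richest in each. The receptors Mrgprb1, Mrgprb2 and Mrgprb8 had no UMI in the members; Mrgprb2 is the receptor through which peptides and drugs activate adult connective tissue mast cells. Enpp3 was likewise at 0, and Cxcr4, a homing receptor, at 1 UMI.

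Of 25 transcription factors, 22 reached 10 CPM in either group. Of these, 8 passed upward, beside 2.65% of all genes, and none downward. Gata2 was at 756 (714 to 801) CPM, 236-fold (198 to 284) higher than in the others, with 65.0, 681 and 1634 CPM as the lowest, median and highest of the 70 members. The other 7 stood at lower levels: Myb, a factor of blood progenitors, at 129.7 CPM, Ikzf1 at 123, Runx3 at 100.01, Ikzf2 at 89.7, the ETS factor Erg at 87.1, Mitf, a factor of mast cells and melanocytes, at 56.1, and Gata1 at 34.8. In the other barcodes these 7 lay between 0.353 CPM for Gata1 and 9.35 for Erg. With barcodes weighted equally Gata1 missed the threshold, at a log2 ratio of 1.96. Spi1, which encodes PU.1, was at 38.1 CPM against 8.31, Meis2 at 228 against 80.7, and Cebpa at 0.645 against 5.32. Of 12 genes of blood progenitors 6 reached 10 CPM in either group and none of these passed in either direction, a count too small to set against the share of all genes. Among them was Cd34 at 88.4 CPM against 82.6, and Flt3 and Mycn of the same list were at 0 in the members.

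Among 24 cytokines and growth factors, 17 reached 10 CPM in either group. Of these, 7 passed upward and 2 downward, beside 2.65% and 5.45% of all genes. The type 2 cytokines Il13 and Il4, which lie side by side on chromosome 11, were at 237 (214 to 263) and 181 (160.1 to 203) CPM and each at 0.235 CPM in the other barcodes. Of the 70 members with at least 100 marker UMIs, 67 had a UMI of at least 1 of the pair and 56 of both. After thinning to 2000 UMIs, Il4 was seen in 36.1% of 72 mast cells and in 0% of the macrophages and endothelial cells. Il5, Il9 and Il10 had no UMI in the members. Ccl1, a chemokine, was at 163 (143 to 184) CPM in 37 members, and Tgfb1 at 188 (167 to 211) in 68. Osm, oncostatin M, was at 58.7 CPM against 1.53. Il6 and Tnf were at 51.0 and 71.6 CPM, and both missed the threshold without the member richest in each.

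The ligand of Kit was on the other side of the comparison. Kitl, stem cell factor, was at 3.87 (1.42 to 8.43) CPM in mast cells, 109 (106 to 112) in all other barcodes and 251 in 138 endothelial cells chosen on Cdh5, Emcn and Pecam1. Pdgfa was the other growth factor past the threshold downward, at 3.23 CPM against 68.3. Il33, the ligand of the Il1rl1 product and looked up after the values were seen, had no UMI in the members and 7.79 CPM in the others.

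Lipid mediator genes were mostly low. Of 10 in the matrix, 7 reached 10 CPM in either group, and 2 passed upward, beside 2.65% of all genes: Alox5 and Alox5ap. They encode the 5-lipoxygenase and its activating protein, which open leukotriene synthesis. Their levels were 101 (86.1 to 118) CPM against 0.636 and 112 (95.6 to 129.6) against 12.1. Hpgds, the prostaglandin D2 synthase of blood cells, was at 45.8 CPM against 8.47 and did not pass, and Ltc4s, leukotriene C4 synthase, at 5.81 against 1.77.

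Of 16 integrins and homing genes 11 reached 10 CPM in either group and 4 passed upward, beside 2.65% of all genes. Itga4 and Itgb7, whose products pair in an integrin that guides mast cell progenitors, were at 232 (208 to 257) CPM against 26.5 and 64.5 (52.5 to 78.5) against 0.989. Selplg and Spn, leukocyte surface mucins, were at 53.6 and 48.4 CPM. Of 22 genes of the granule membrane, lysosome and exocytosis, all of which reached 10 CPM in either group, 3 passed upward, beside the 2.65% of all genes: Rab27b, a GTPase of granule release, at 638 (599 to 679) CPM and 148-fold (126 to 174) higher, Stxbp2 (Munc18-2), at 74.8 against 3.20, and Ctsc, the protease that activates chymases and granzymes, at 321 (293 to 350.2) against 32.0. Cd63, a granule membrane protein found in many cells, was at 810.4 CPM against 774. Of 10 genes shared by all leukocytes 9 passed, with Ptprc, which encodes CD45, at 80.7 CPM against 8.54 and Tyrobp at 785 against 39.8.

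All 8 connective tissue markers passed the threshold downward, as did 5 of 6 chondrocyte, 2 of 4 tenocyte and 4 of 8 erythroid markers. So did 2 of 8 endothelial, 2 of 5 mural, 2 of 8 neutrophil, 1 of 5 Schwann and 1 of 5 melanocyte markers. None of the muscle lineage, macrophage, megakaryocyte or epithelial markers did. Of the 8 muscle lineage markers 7 reached 10 CPM in either group, and the members' sum of 441 CPM was 64.9 without the 4 members under 100 marker UMIs. Over all genes the downward share was 5.45%. Of genes with at least 100 CPM in the others, the lowest ratios were those of the transcription factor Ebf1 at 4.52 (1.82 to 9.31) CPM against 383, the retinoic acid binder Crabp1 at 6.45 against 399.9, the growth factor Ptn at 76.8 against 2105 and the adult globin Hbb-bt at 12.3 against 485. Serpinh1, the collagen chaperone, Tshz2, Mfap2 and Vcan lay between 7.10 and 36.1 CPM in mast cells and between 355 and 984 CPM in the others. The matrix genes Dcn and Sparc were at 35.5 and 82.6 CPM, and at 8.03 and 26.8 CPM without the 4 members under 100 marker UMIs. Ptn likewise stood at 22.1 CPM without them. Globin UMIs were spread over members, with Hbb-bs in 51 of 74 at no more than 6 UMIs each.

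Macrophages, the other resident myeloid cells, gave a closer comparison. They were 62 kept E15.5 barcodes chosen by the same form of rule on C1qa, C1qb and Csf1r, with a median of 13116 UMIs. Against them 194 of 8743 genes passed upward (2.22%) and 420 downward (4.8%). With 1 CPM added these were 498 and 952, and with 50 CPM 51 and 126. Both cell types carried the shared leukocyte genes: none of the 10 was 4-fold higher in mast cells and only Cd52 was 4-fold lower. Fcer1g was at 2042 (1946 to 2142) CPM in macrophages, above mast cells by less than the threshold. Gata2, Rab27b, Cyp11a1, Maob and Tpsg1 had no UMI in the macrophages, and against 3 counts over that group they were at least 209-, 176-, 173-, 141- and 124-fold higher in mast cells. Kit was 47.8-fold (30.2 to 80.9) higher and Srgn, which macrophages also use, 11.6-fold (10.1 to 13.3) higher.

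Genes that set mast cells apart from macrophages but had not ranked highest against all barcodes included Hs3st1, named above, the structural protein gene Mns1 (495 against 13.3 CPM), Smpx (226 against 1.21), the membrane-bound factor Creb3l1 (241 against 2.42), the transporter gene Slc45a3 (190.3 against 0), the inhibitory G protein subunit Gnai1 (181 against 0), 1700006J14Rik (176 against 0) and Socs2, a brake on cytokine receptors (218 against 2.42). Dqx1 also ranked here, but 165 of its 253 UMIs lay in 1 of 3 members. In the other direction, over all 74 members and with 10 CPM added, the lowest ratio was that of the chemokine Ccl2, at 3.87 (1.42 to 8.43) CPM against 1387 (1308 to 1470.1). The complement genes C1qb, C1qc and C1qa were at 2330.1, 1897 and 1619 CPM in macrophages, 2 of these being genes that chose them, and Apoe, Selenop, Ctss, Pf4, Atf3 and Maf between 1090.1 and 8477 CPM, against 12.3 to 146 CPM in mast cells. Without the 1 member that met both rules C1qa and C1qb were at 0 in mast cells, in place of 25.2 and 16.8 CPM, and Pf4 at 1.33 in place of 38.1, so that the order of these genes rests on that member. Also lower by 4-fold or more were the cathepsin Ctsb, at 120.0 against 2959.8 CPM and Spi1, at 38.1 against 332. Of the lipid mediator genes 4 passed downward against macrophages, Hpgds and Ltc4s among them, and Alox5 passed upward.

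**Figure D4:**
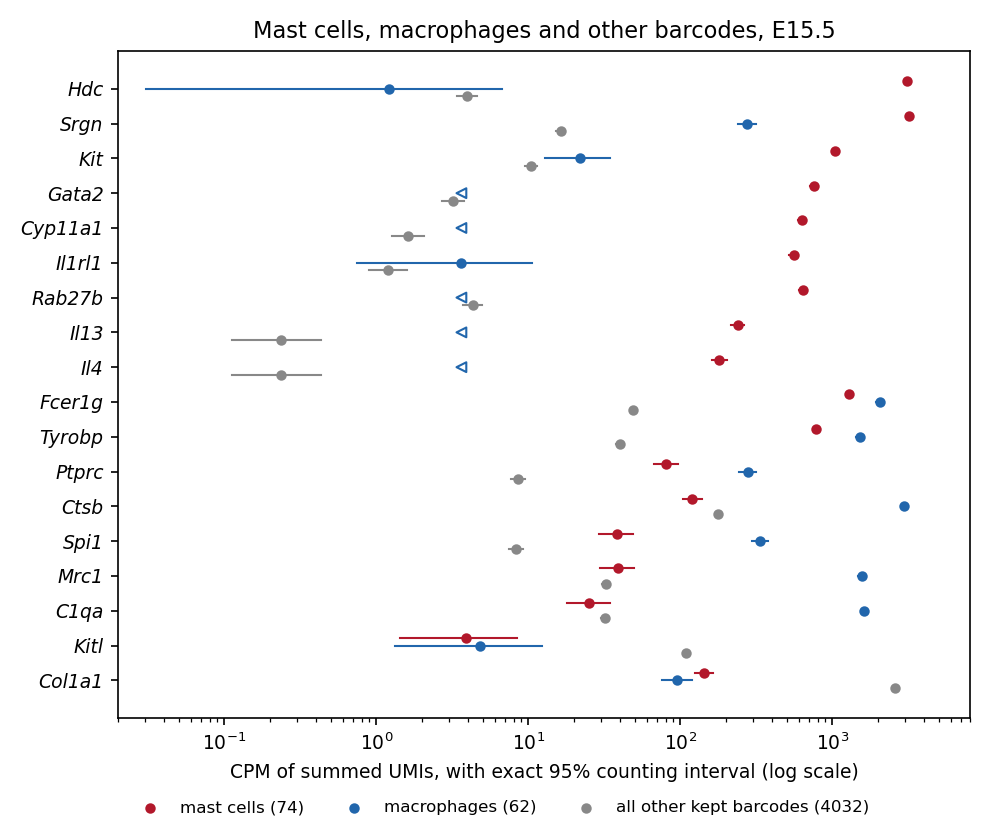
CPM of 18 genes summed over 74 mast cells (red), 62 macrophages (blue) and the 4032 other kept E15.5 barcodes (grey, macrophages included) on a log scale, with exact 95% Poisson intervals for counting error; open triangles mark a count of 0, drawn at 3 counts. Hdc to Il4 are highest in mast cells, Fcer1g to Ptprc are high in both leukocytes, Ctsb to C1qa are highest in macrophages, and Kitl and Col1a1 are highest in the other barcodes.

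By UMIs alone, the 10 highest genes of the mast cells outside ribosomal protein and mitochondrial genes were Malat1, Cma1, Gm42418, Cpa3, Eef1a1, Actb, H3f3b, Fau, Ptma and Hsp90ab1. Cma1 and Cpa3 thus stood among housekeeping genes such as Eef1a1 (5596 CPM in mast cells, 5227 in the others). Gm42418, an RNA that overlaps ribosomal RNA, was at 10472 CPM against 25727.

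Of the 10 genes with the largest variance-to-mean ratio among the mast cells, 5 were granule proteases, the 3 of the rule included. Over 72 members thinned to 2000 UMIs, the ratio of variance to mean, which is 1 for pure counting noise, was 25.97 for Mcpt8, 13.9 for Mcpt4, 9.42 for Cma1, 6.77 for Tpsb2 and 5.003 for Cpa3, against a median of 1.12 over 562 genes with a mean of at least 0.5 UMIs. Malat1 and Gm42418, nuclear and ribosome-linked RNAs, were at 9.50 and 8.37. Of the other 3 in the top 10, the histone gene Hist1h1b was at 3.98, Parp1, a DNA repair enzyme, at 3.90 and the Notch target Hes1 at 3.62. Hdc and Kit, at 1.49 and 1.16, lay near the counting level. For the same relative spread this ratio grows with a gene's mean, so the ranking favours abundant genes. Thinned means were 28.6 UMIs for Cma1, 19.5 for Cpa3, 6.08 for Hdc and 1.88 for Kit. The 72 members included those with only 3 marker UMIs.

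Rank correlations of CPM were taken across the 70 members with at least 100 marker UMIs. Cma1, Cpa3 and Tpsb2 chose these members and set that cut, so correlations among the 3 are a description and no finding. Cma1 and Tpsb2 had a rank correlation of 0.78 and Cma1 and Cpa3 0.53. Outside the rule, Cma1 had 0.64 with Srgn, 0.78 with Fcer1g and 0.05 with Kit. Cma1 and Hsp90aa1, a chaperone, ran opposite at -0.66. Total UMIs had a correlation of -0.65 with Cma1, -0.65 with Tpsb2, -0.40 with Cpa3 and 0.21 with Kit. These are descriptions over the cells of 1 library, which share depth as well as biology, and the part of depth in them was not tested. The ratio of Cpa3 to Cma1 UMIs ran from 0.177 to 10.5 around a median of 0.743.

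Some single members, picked after their values were seen, show the range. Of the 70, 6 had 2 or fewer Tpsb2 UMIs, with 13, 51, 58, 156, 95 and 289 UMIs of Cma1 and 137, 118, 150, 107, 195 and 209 of Cpa3. All 6 had Hdc, between 38 and 86 UMIs, and Kit, between 11 and 42. One of them was the member rich in Mcpt8: among 24564 UMIs it held 156 UMIs of Cma1, 107 of Cpa3, none of Tpsb2, Tpsg1 or Prss34, 84 of Hdc, 67 of Cyp11a1, 26 of Kit and 15 of Gzmb. The 6 members with at least 20 Mcpt4 UMIs had between 221 and 345 UMIs of Cma1 and between 41 and 127 of Tpsb2 among 10588 to 18251 UMIs in all.

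**Figure D5:**
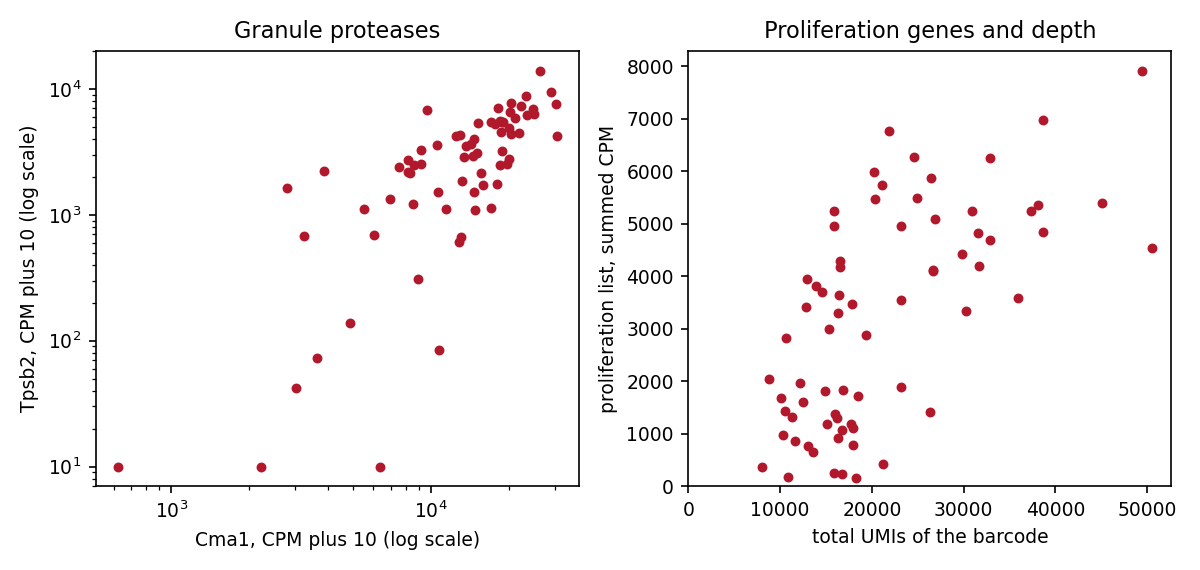
The 70 mast cells with at least 100 marker UMIs. Left, Cma1 against Tpsb2, both among the genes that chose the members, as CPM plus 10 on log scales. Their rank correlation was 0.78, with 3 members at 0 Tpsb2. Right, the summed CPM of 25 proliferation genes against total UMIs of the barcode on linear axes, at a rank correlation of 0.63.

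Many mast cells carried cell-cycle RNA. The 25 proliferation genes summed to 3684 CPM (3589 to 3781) in mast cells and 2871 (2855 to 2888) in the other barcodes, a log2 ratio of 0.36 (counting interval 0.32 to 0.40). No gene of the list passed the 4-fold threshold in either direction, and their median log2 ratio was 0.21. Top2a, a topoisomerase of dividing cells, was at 972 (924 to 1023) CPM against 624 and Mki67, the Ki-67 antigen, at 463 (430.0 to 498) against 249. Helicase subunits of the S phase were mixed, with Mcm3 at 171 against 87.0 CPM and Mcm6 at 109 against 117. Of the cyclins of S phase entry, Ccne1 was at 16.1 CPM against 83.8 and Ccne2 at 52.3 against 116.

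Since mast cells were deeper, shares were compared at 2000 UMIs a barcode. A Mki67 or Top2a UMI was then seen in 49 of 72 mast cells (68.1%, exact interval 56.0 to 78.6), in 17 of 55 macrophages (30.9%, 19.1 to 44.8), in 48 of 135 endothelial cells (35.6%) and in 1156 of 3762 other barcodes (30.7%, 29.3 to 32.2). Thinning left out 2 mast cells, 7 macrophages, 3 endothelial cells and 270 others. Without thinning the shares were 91.9%, 62.9%, 47.1% and 48.4%. No cell type that lacks these genes was at hand, so the level that free RNA gives was not measured. In single barcodes the list's median was 3321 CPM in mast cells, 1068 in macrophages and 952 in the others. The mast cells ranged from 164 to 7907 CPM and the others from 0 to 12639, so that the ranges overlapped fully. Among the 70 members the list had a rank correlation of 0.63 with total UMIs, -0.41 with Cma1, -0.38 with Tpsb2 and 0.12 with Kit. The part of depth in these was not tested.

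UMIs of X-inactivation and of Y-linked genes were both found among the mast cells. Xist, which is transcribed from the inactive X, was seen without a Y-linked UMI (Ddx3y, Eif2s3y, Uty or Kdm5d) in 49 of 74 members (66.2%, 54.3 to 76.8), and a Y-linked UMI without Xist in 18 (24.3%). In the other barcodes these shares were 66.9% and 17.3%, and 12.1% had neither, against 6.76% of the mast cells. Barcodes were not thinned here and the mast cells were deeper, and the part of depth in these shares was not tested.

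The E12.5 library held hardly any such cell. Of 12271 kept E12.5 barcodes 1 met the rule, a share of 0.00815% (0.000206 to 0.0454). The E12.5 barcodes were shallower, with a median of 2453 UMIs against 9518 at E15.5. With barcodes thinned to 2000 UMIs, the 4059 shallower E12.5 barcodes and 272 shallower E15.5 barcodes being left out, the rule found 0 of 8212 at E12.5 (interval up to 0.0449%) and 69 of 3834 at E15.5 (1.80%, 1.40 to 2.27). The intervals did not overlap, but with 1 library per age a difference of the libraries and one of the ages cannot be told apart.

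What the E12.5 library did hold was a handful of barcodes with Cpa3 and hardly any Cma1 or Tpsb2. The 1 that met the rule had 34 UMIs of Cpa3, 1 of Cma1 and none of Tpsb2 among 5309 UMIs, with 23 of Srgn, 14 of Itga4, 11 of Kit, 9 of Gata2, 6 of Hdc and 5 of Il1rl1. Another had 31 UMIs of Cpa3, 16 of Kit, 11 of Il1rl1 and 9 of Gata2, and the next 20 of Cpa3, 6 of Gata2, 5 of Hdc and 5 of Gzmb, neither with a UMI of Cma1 or Tpsb2. The remaining 2 held 6 and 3 UMIs of Cpa3, with 11 and 2 of Runx3.

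At E15.5, 3 barcodes with Cpa3 alone stood just outside the rule. They had 30, 11 and 8 UMIs of Cpa3, none of Cma1 or Tpsb2, and 38, 10 and 19 UMIs of Hdc with 30, 14 and 12 of Gata2. They held 1, 1 and 0 UMIs of Kit and 165, 35 and 5 of Mcpt8. These 3 held 205 of the 213 Mcpt8 UMIs of all barcodes outside the mast cells, together with 67 of 168 Hdc UMIs and 56 of 136 Gata2 UMIs. Each had Cd200r3, at 11, 4 and 11 UMIs, and Prss34, at 16, 1 and 8. Of these genes Prss34 was also seen in 42 of the 74 members and Cd200r3 in 63, and Hdc, Gata2 and Cpa3 are genes of both basophils and mast cells. With 3 barcodes no class was formed from them.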

How the data were processed

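Each library came as a matrix of raw UMI counts per gene and barcode; the authors made these counts with Cell Ranger 4.0.0 on mm10, per the submitters' processing notes, which also name Seurat 4.3.0. The deposited barcodes were already filtered, with a lowest total of 500 UMIs. Symbols were taken as listed (32235 of 32285 identifiers matched GENCODE vM21).

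From the counts, barcodes were kept and classed by the rules in the report, and UMIs were summed per group. Intervals are exact (Poisson, Clopper-Pearson, conditional for ratios) at 95%, and cover counting error only. A count of 0 was set to 3 counts over the group for bounds. Barcodes that met more than 1 class rule were left out of the comparison classes (1 member also met the macrophage rule and stayed a member). Doublets were scored against simulated pairs and none were removed in the main analysis; 2 members were among the barcodes removed in an alternative. Genes were named by rule: the 25 highest ratios with at least 20 UMIs, the 10 lowest with at least 100 CPM in the others, the 10 highest levels, the 10 highest and 10 lowest against macrophages, the 10 largest variance-to-mean ratios, and list members. Members and lists were chosen with earlier results of these data known. The ratio step was tested on simulated data. Analyses used Python 3.11.15, numpy 2.4.6 and scipy 1.17.1.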

Additional observations from a re-analysis of the deposited data

How the results depend on the processing

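No paired analysis was possible because each age has 1 library, and for the same reason no replicate could be left out. The E15.5 share of mast cells moved beyond its counting interval only with no barcode filter, to 1.35%, out of 8 alternatives. The E12.5 share became 0 with all 3 markers and at least 10 UMIs required. The counts of genes past 4-fold stayed within 1.5 times of the main count except when 1 or 50 CPM was added. With 1 CPM they were 559 higher and 1572 lower than the other barcodes, and 498 higher and 952 lower than macrophages. With 50 CPM they were 73 and 96, and 51 and 126. The log2 ratio of the proliferation list kept its sign under all 11 alternatives. Outside its counting interval it was 0.41 with all 3 markers required, 0.32 with no minimum sum, 0.41 with no barcode filter and 0.43 without the highest doublet scores. It was also outside at 0.40 without members of a second class, 0.44 with the median gene at 0 and 0.46 with barcodes weighted equally. The removal of members of a second class left 70 members, so it took out more than the 1 member that met the macrophage rule. The ratio was 0.41 without the 4 members under 100 marker UMIs, likewise outside the interval, an alternative chosen after seeing the data. The share of mast cells with a Mki67 or Top2a UMI was 47.3% when thinned to 1000 UMIs and 91.9% with no thinning, since fewer UMIs show fewer genes. Of 190 named genes followed under 6 alternatives, also chosen after seeing the data, none past 4-fold changed sign and 5 fell below 4-fold in at least 1: Il6, Tnf, Cd200r1, Csf2rb2 and Gata1.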
